A study of Mus musculus with 11 samples.

Results

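Kv4 channels are voltage-gated potassium channels of neurons and heart muscle, and the genes for their pore and for their auxiliary subunits were followed here in granule cell progenitors (GCps) of the postnatal day 7 (P7) mouse cerebellum. The set held 9 genes of the 38924 in the count files. They were 3 pore-forming alpha subunits (Kcnd1, Kcnd2 and Kcnd3), 4 Kv channel interacting proteins or KChIPs (Kcnip1 to Kcnip4) and 2 dipeptidyl peptidase-like proteins (Dpp6 and Dpp10). The genes entered by name, but the set was selected on measured values: the CPM (counts scaled to a common library size) of Kcnd2 in these same 4 libraries were known to be much lower in Chd7-deficient GCps. The difference between genotypes is therefore given for all 9 members as a description. No p-value is printed for a member, and how many members passed a threshold is given as a count from which nothing is read.

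RNA-Seq covered 2 control libraries and 2 conditional knockout (cko) libraries of Percoll-purified GCps from P7 pups on a C57Bl/6J background. The cko genotype was Math1cre;Chd7flox/flox, in which the Cre transgene is driven by Math1 and acts in the granule cell lineage from the rhombic lip on. The control genotype is Chd7flox/+ in the sample labels and carries 2 floxed alleles without Cre in the extraction notes, so control cells carried at least 1 floxed allele. By the study's purification methods, lobules IX and X, where the transgene is inefficient, were removed and cerebella of each genotype were pooled. Its RNA-Seq methods refer to that purification but give a cell number per cerebellum, so whether these libraries were pooled is not certain. No source used here ties replicate libraries to separate animals or pools. Xist and Ddx3y differed between the 2 cko libraries, which therefore held different animals, whereas for the 2 control libraries the error between replicates may be technical. CHD7 is an ATP-dependent chromatin remodeler, and the comparison was made to find genes whose expression depends on it.

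A Kv4 channel is a tetramer of alpha subunits that carries a fast, transient outward current, the A-type current, which opens below the threshold of the action potential and delays firing. KChIPs are calcium-binding EF-hand proteins that attach to the intracellular N-terminus of Kv4 subunits, bring the channel to the cell surface and slow its inactivation. DPP6 and DPP10 are single-pass membrane proteins that resemble dipeptidyl peptidases but lack the enzyme activity, and they speed the gating of the channel. Granule neurons of the cerebellum are known for a large A-type current built on these 3 kinds of subunit.

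Library totals ran from 61836588 to 77346481 counts. The genotype was not checked by Chd7 itself, because its count covers the whole gene and not the deleted part alone. Chd7 was at 322 and 319 CPM in control and 392 and 355 CPM in cko replicates 1 and 2. Cko replicate 1 was the only library with much Xist, the RNA of the inactive X chromosome, at 793 CPM against a maximum of 0.548 CPM elsewhere. The Y-linked gene Ddx3y was at 0 CPM in that library and between 63.7 and 69.1 CPM in the others. By these genes cko replicate 1 was female, and both controls and cko replicate 2 were male. Sex was thus not balanced between the genotypes, and its part in the values of the Kv4 genes was not tested. The summed level of 6 genes listed here for granule cell precursors was 3971 and 3880 CPM in control and 3149 and 3710 CPM in cko libraries. Most of it came from Zic1, Neurod1 and Pax6, while Atoh1 was between 25.6 and 37.0 CPM. None of the 6 was called. Log2 fold changes were below 0 for Neurod1 (-0.71), Pax6 (-0.30) and Zic1 (-0.12). They were above 0 for Gli2 (0.57), Atoh1 (0.25) and Barhl1 (0.22). The sum alone does not show what part of the cells were precursors. The sum over 6 genes of maturing granule neurons was 2288 and 1803 CPM in control and 1825 and 2020 CPM in cko libraries, most of it from Cntn2, and none of the 5 tested was called. Among these 6 genes, Gabra6 stayed at or below 0.104 CPM, and Grin2c was at 1.10 and 2.59 CPM in control and 23.0 and 15.5 CPM in cko libraries (log2 fold change 3.40, edgeR quasi-likelihood adjusted p = 0.0566), both named after their values were seen. The remaining tested genes of this list had log2 fold changes below 0, Rbfox3 (-0.32), Neurod2 (-0.32), Cbln3 (-0.14) and Cntn2 (-0.05). Markers of other cells were present too. The summed level of 6 interneuron genes lay between 50.8 and 69.3 CPM. That of 6 Purkinje cell genes lay between 56.7 and 66.5 CPM, most of it from Itpr1 and Aldoc. The rest of these Purkinje cell genes were low, looked up after the sums were seen. Pcp2 was at most 0.196, Ppp1r17 at most 0.163, Calb1 at most 1.22 and Car8 at most 1.32 CPM. Of 5 skeletal muscle genes 3 were called higher in cko, with sums of 5.21 and 3.53 CPM in control and 19.9 and 41.7 CPM in cko libraries. Of 7 oligodendrocyte lineage genes 1 was called higher, Olig2, with sums of 362 and 329 CPM in control and 394 and 413 CPM in cko libraries. Endothelial sums were 226 and 193 CPM in control and 301 and 305 CPM in cko libraries, with none of 5 genes called. No gene was called in the lists for unipolar brush cells (71.4 to 83.9 CPM), astrocytes and Bergmann glia (680 to 887 CPM), microglia (149 to 174 CPM) and meningeal fibroblasts (42.8 to 61.7 CPM), and no marker was at 0 in all 4 libraries. The part of these cells in the values of the Kv4 genes was not tested. In pooled cells of this kind, fewer cells that express a gene and less RNA per cell cannot be told apart.

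Kcnd2 and Kcnd3 have the same function in the channel, and their promoters are shown because the first gene differed between the genotypes while the second did not. The 250 bases before the RefSeq start of each gene are given for assembly GRCm38.p6, 5′ to 3′ on the strand of the gene, with every CG dinucleotide in capitals. The Kcnd2 window lies at chr6:21215096-21215345 and the Kcnd3 window at chr3:105451640-105451889, both on the plus strand.
Kcnd2: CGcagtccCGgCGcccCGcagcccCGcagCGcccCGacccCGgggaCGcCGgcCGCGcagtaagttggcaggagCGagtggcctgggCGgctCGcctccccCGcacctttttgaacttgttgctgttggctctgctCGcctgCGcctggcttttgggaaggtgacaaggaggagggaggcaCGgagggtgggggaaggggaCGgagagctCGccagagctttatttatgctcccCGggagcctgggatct
Kcnd3: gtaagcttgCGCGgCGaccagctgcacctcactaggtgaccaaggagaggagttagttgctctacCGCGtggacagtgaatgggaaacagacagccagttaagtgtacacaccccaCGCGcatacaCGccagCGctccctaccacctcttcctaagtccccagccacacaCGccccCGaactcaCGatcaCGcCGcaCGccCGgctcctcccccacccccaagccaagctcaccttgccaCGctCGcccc
Both windows are rich in CG. The Kcnd2 window holds 22 and the Kcnd3 window 18 CG dinucleotides, against a median of 6 over 32851 RefSeq promoter windows of the same length, so that 85.2% and 78.3% of all windows held fewer. Their GC content was 68.8% and 62.8%. The letters CAGCTG, an E-box that reads the same on both strands, occurred once in the Kcnd3 window and were not found in the Kcnd2 window, and 13.0% of all windows held them. In all, 15 windows were found for 8 of the 9 genes, and 3 of the 15 held CAGCTG, those being 1 window each of Kcnd3, Kcnip1 and Kcnip3. Among the other windows, the CG count ran from 2 in 1 of the Kcnip3 windows to 23 in another Kcnip3 window.

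Per length of exon, 4 of the 9 genes made up nearly all of the summed RNA level of the set in control GCps, and each kind of subunit had a leading gene or pair. Levels between genes are given as RPKM, which is CPM divided by the exonic length in kilobases. Kcnip3, which encodes KChIP3, a protein also known as calsenilin or DREAM and described as a transcriptional repressor, came first with 20.3 and 22.8 RPKM in control replicates 1 and 2. Kcnd3, the gene of the alpha subunit Kv4.3, followed with 8.43 and 9.65 RPKM, and Kcnd2, the gene of Kv4.2, with 7.47 and 6.95 RPKM. Dpp6 was at 3.09 and 3.71 RPKM. These levels placed Kcnip3 above 82.8%, Kcnd3 above 64.3%, Kcnd2 above 58.9% and Dpp6 above 42.3% of the tested protein-coding genes of control GCps.

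The other 5 genes were expressed at the low end of the range. Kcnd1, the gene of Kv4.1, stood at 0.395 and 0.414 RPKM and Kcnip4 at 0.162 and 0.196 RPKM in the control libraries. Kcnip1, Kcnip2 and Dpp10 were at most 0.0936 RPKM there. Dpp10 lay above 1.84% and Kcnip2 above 3.17% of tested protein-coding genes. Counts of these 5 genes were small, from 9 reads for Kcnip2 in control replicate 2 to 191 reads for Kcnd1 in cko replicate 1, and all 9 members passed the filter on low counts. In the order of control levels, the ranges of neighbours overlapped for Kcnip1 with Kcnip2 and for Kcnip2 with Dpp10, and the other neighbours were separated in both libraries. The order depends on the length used: with the longest annotated transcript in place of all exons, Dpp6 (8.89 RPKM on average) ranked above Kcnd2 (7.21 RPKM), because the exons of Dpp6 add up to 12347 bases and its longest transcript to 4720 bases.

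**Figure D1:**
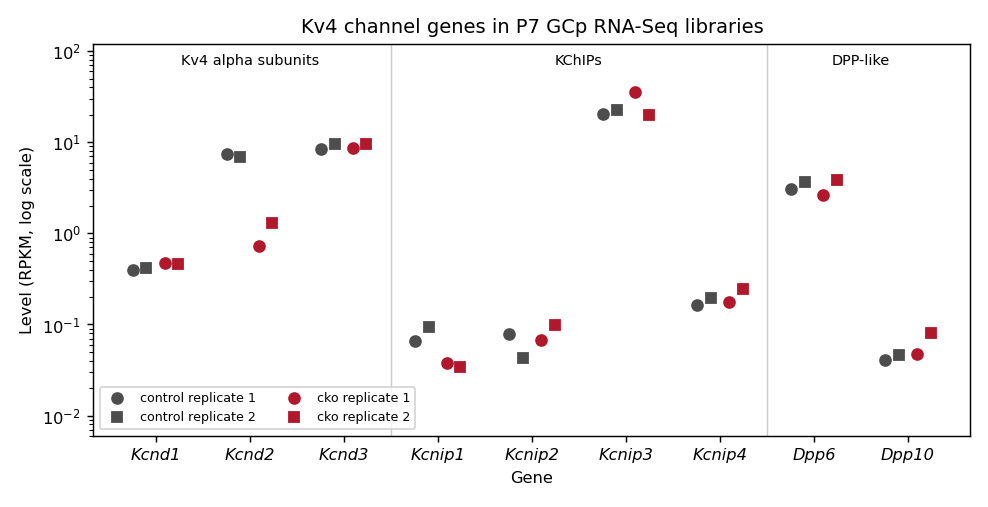
Level of each of the 9 genes in RPKM (vertical axis, log scale) in the 4 RNA-Seq libraries, 1 point per library, gray for control and red for cko. Kcnd2 is near 7 RPKM in both control libraries and at 0.720 and 1.31 RPKM in the cko libraries, while Kcnd3 stays between 8.43 and 9.65 RPKM in all 4.

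Kcnd2 was far lower in cko than in control GCps. It was at 38.5 and 35.8 CPM in control replicates 1 and 2 and at 3.71 and 6.73 CPM in cko replicates 1 and 2. The cko libraries thus lay well below both control libraries and differed from each other more than the controls did. The log2 fold change was -2.84 (standard error 0.29), or 7.15-fold lower. By size of the log2 fold change it was rank 23 from the lowest of 16436 tested genes and rank 9 of the 12388 whose average log2 CPM was 1 or more. Kcnd2 (ENSMUSG00000060882) spans 514.3 kb of chromosome 6 (21215503 to 21729805 of GRCm38, plus strand), of which 5152 bases are exonic, and no other gene overlaps its exons. The log2 fold change lay between -3.32 and -2.45 when each library was left out. Its direction could not turn, because both cko libraries lay far below both control libraries, so this is no separate support. The lowest level was in cko replicate 1, the library with Xist, and without it the value was -2.45. The nearest tested protein-coding genes on the 2 sides of Kcnd2 did not share its difference, but only Tspan12 is close. Tspan12, 41.6 kb beyond the end of Kcnd2, had a log2 fold change of 0.03 (standard error 0.12, edgeR quasi-likelihood adjusted p = 0.964). Lsm8, 2360 kb before the start of Kcnd2, was at -0.23 (standard error 0.15, adjusted p = 0.608 in the same test). Cadps2, 1.53 Mb beyond the end of Kcnd2 and so nearer than Lsm8, was also lower in cko (log2 fold change -2.54).

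Kcnd3 kept its level where Kcnd2 lost most of it. It was at 80.9 and 92.5 CPM in control and at 83.3 and 92.4 CPM in cko replicates 1 and 2, so that the genotypes overlapped. Its log2 fold change was 0.02 (standard error 0.11). Only 165 bases of its exons are shared with a gene on the opposite strand (Kcnd3os), so that little of the count is uncertain through the strand setting. Kcnd1, which lies on the X chromosome, was at 2.09 and 2.19 CPM in control and 2.48 and 2.44 CPM in cko libraries (log2 fold change 0.20, standard error 0.21). Its cko values lay above the control values by less than the standard error, and the library with Xist did not stand apart from the other cko library.

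The make-up of the summed Kv4 level differed accordingly between the genotypes. Kcnd2 gave 45.8% and 40.8% of it, as shares of RPKM, in the 2 control libraries, and the shares in cko replicates 1 and 2 were 7.29% and 11.5%. Kcnd3 gave 51.7% and 56.7% in control and 88.0% and 84.5% in cko libraries. The share of Kcnd1 was at most 4.74%. The summed level of the 3 genes was 16.7 ± 0.501 RPKM in control and 10.6 ± 1.08 RPKM in cko GCps (SD, n = 2 libraries each), a difference carried by Kcnd2. With the length of the longest transcript the share of Kcnd2 averaged 36.7% in control and 7.27% in cko libraries. The direction is fixed by the choice of the set and is no separate result.

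**Figure D2:**
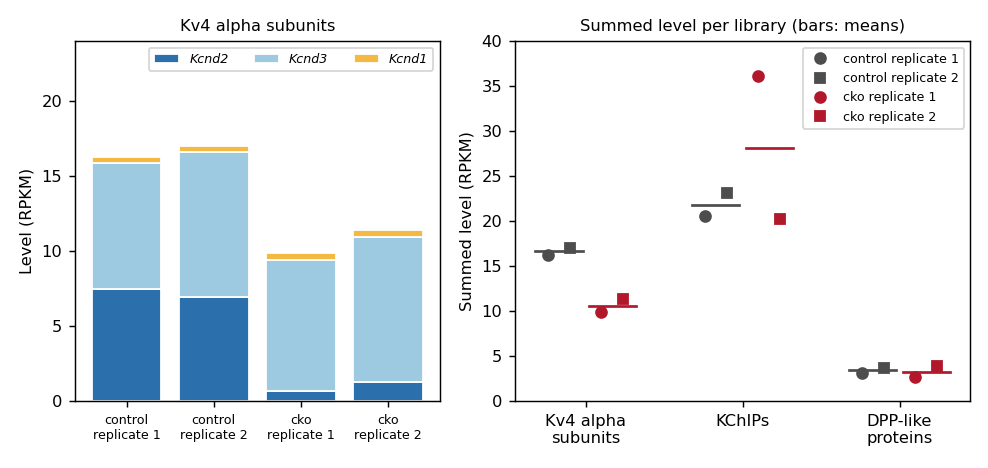
Left, RPKM of the 3 Kv4 alpha subunit genes stacked per library; right, RPKM summed over each kind of subunit (vertical axes) per library, gray for control and red for cko, with bars at the means of 2 libraries. The Kv4 sum is lower in cko (10.6 against 16.7 RPKM), cko replicate 1 alone is high for KChIPs (36.2 RPKM), and the DPP-like sums overlap.

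Among KChIPs, Kcnip3 gave at least 98.1% of the summed level in every library. Kcnip3 was at 72.1 and 80.7 CPM in control and at 127 and 70.5 CPM in cko replicates 1 and 2. Cko replicate 1 stood above the other 3 libraries and cko replicate 2 below both controls, so the genotypes overlapped. The log2 fold change was 0.37 (standard error 0.30) with all libraries and -0.11 without cko replicate 1. The summed KChIP level was 21.9 ± 1.75 RPKM in control and 28.2 ± 11.3 RPKM in cko GCps (SD, n = 2), and the difference turned from 6.34 to -1.62 RPKM without cko replicate 1.

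The other KChIP genes were close to the limit of detection. Kcnip1, a KChIP known from GABAergic interneurons of several brain regions, had 31 and 35 reads in control and 18 and 13 reads in cko libraries. These were 0.405 and 0.580 CPM in control and 0.233 and 0.211 CPM in cko libraries, which did not overlap (log2 fold change -1.13, standard error 0.39). The log2 fold change was -0.86 without control replicate 2. The interneuron markers, had sums of 50.8 and 61.1 CPM in control and 69.3 and 68.2 CPM in cko libraries, and their part in the value of Kcnip1 was not tested. Kcnip2, the KChIP of the heart, had 21 and 9 reads in control and 18 and 21 in cko libraries and overlapped between the genotypes (log2 fold change 0.40, standard error 0.48). Kcnip4, a variant of which is known to suppress the fast inactivation of the channel, had 45 and 43 reads in control and 49 and 55 in cko libraries, at 0.587 and 0.713 against 0.635 and 0.894 CPM (log2 fold change 0.23, standard error 0.33). It gave 0.818% ± 0.0461 of the summed KChIP level in control and 0.851% ± 0.518 in cko GCps (SD, n = 2). Of the exons of Kcnip4, 7.36% are shared with genes on the opposite strand, and whether counting used strand is not known.

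Of the DPP-like pair, Dpp6 gave at least 97.9% of the summed level. Dpp6 was at 38.1 and 45.8 CPM in control and at 32.7 and 47.3 CPM in cko replicates 1 and 2. Both cko values fell outside the control range, 1 below and 1 above it. The log2 fold change was -0.07 (standard error 0.19) and changed sign with the library left out, from -0.36 without cko replicate 2 to 0.18 without cko replicate 1. Dpp10 had 49 and 44 reads in control and 58 and 78 in cko libraries, at 0.640 and 0.729 against 0.752 and 1.27 CPM. The 2 genotypes did not overlap, but the log2 fold change of 0.56 (standard error 0.35) was 0.14 without cko replicate 2. The summed DPP-like level was 3.44 ± 0.442 RPKM in control and 3.31 ± 0.863 RPKM in cko GCps (SD, n = 2).

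With the threshold of 0.05 on the adjusted p of the edgeR quasi-likelihood test, 1 of the 9 members was called, Kcnd2, whose low values led to the choice of the set, and 1.58% of all tested genes were called (0.773% lower and 0.809% higher in cko). No member was called higher. None of the other 8 was called by that test or by DESeq2, which called 5.6% of the genes it tested, and 1 of them, Kcnip1, had an unadjusted p under 0.05, as had 13.6% of all tested genes. With the replicate number as a block, and without control replicate 1 or control replicate 2, no member was called. Without cko replicate 2 the calls were Kcnd2 and Kcnip3. The CPM of the 2 genotypes did not overlap for 4 members, Kcnd2 and Kcnip1 lower in cko and Kcnd1 and Dpp10 higher, whereas 43.9% of all tested genes did not overlap (21.2% lower and 22.7% higher in cko). Nothing about the set is read from these counts. The median log2 fold change was 0.20 over the 9 members and 0.22 over the 8 without Kcnd2, with all tested genes at -0.00056.

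The members also differ in size, which the choice did not use. Of the 9 genes, 4 are longer than 500 kb (Kcnip4 with 1135 kb, Dpp6 with 910.3 kb, Dpp10 with 724.1 kb and Kcnd2 with 514.3 kb), whereas 1.05% of protein-coding genes in the files are that long, with a median of 17.7 kb. The other 3 long members had log2 fold changes of 0.23, -0.07 and 0.56, with 43 to 78 reads per library in Kcnip4 and Dpp10. Among 205 tested protein-coding genes over 500 kb, Kcnd2 included, 13 were called lower in cko (6.34%, against 0.773% of all tested genes) and 5 higher (2.44%, against 0.809%), with a median log2 fold change of -0.03. Whether length bears on the value of Kcnd2 was not tested.

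Other genes of the channel complex and its relatives, were listed by function. Of 59 tested genes in 5 lists, 1 fell, 0 rose and 58 did not pass, against 1.58% called among all tested genes. The one that fell was Dlg2, which encodes PSD-93, a scaffold protein of the postsynaptic density. Dlg2 was at 34.5 and 34.9 CPM in control and at 22.0 and 20.7 CPM in cko libraries (log2 fold change -0.70, standard error 0.11), and the quasi-likelihood test of edgeR gave an adjusted p of 0.0369. It was lower in 2 of 2 cko libraries than in both controls, as were 21.2% of all tested genes. The call was lost with total counts in place of TMM (adjusted p = 0.0643) and without control replicate 1 (0.0874) or control replicate 2 (0.192). The other 8 tested scaffold and traffic genes did not pass, with a list median of -0.07. Of the 9 in this list 3 had an unadjusted p under 0.05, against 13.6% of all tested genes. In DESeq2 2 passed, Dlg2 and Dlg4, against 5.6% of the genes it tested. Besides these 2, the gene with an unadjusted p under 0.05 was Flna, which was higher in cko (log2 fold change 0.36, standard error 0.13). Dlg4, the gene of the scaffold PSD-95, is named here with its values known. Its levels were 132 and 107 CPM in control and 81.3 and 85.8 CPM in cko libraries (log2 fold change -0.52, edgeR quasi-likelihood adjusted p = 0.107).

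Of 30 tested alpha subunits of the other voltage-gated families (Kv1 to Kv3, Kv5 to Kv12), none passed the quasi-likelihood test, 8 had an unadjusted p under 0.05 (13.6% of all tested genes had) and 2 passed in DESeq2 (5.6% of all genes it tested did). Their log2 fold changes ran from -0.91 to 1.27 with a median of 0.06. Of 8 Kv beta and KCNE subunits none passed, 1 had an unadjusted p under 0.05 and none passed in DESeq2 (median 0.09), and the most abundant, Kcne5, had a log2 fold change of -0.11 (edgeR quasi-likelihood adjusted p = 0.840). Of 4 active dipeptidyl peptidases, the enzyme relatives of Dpp6 and Dpp10, none passed, 0 had an unadjusted p under 0.05 and none passed in DESeq2 (median -0.02), and Dpp8 stood at 156 and 174 CPM in control and 142 and 172 CPM in cko libraries (edgeR quasi-likelihood adjusted p = 0.873). Of 8 tested neuronal calcium sensors, the EF-hand relatives of KChIPs, none passed, 1 had an unadjusted p under 0.05 and 1 passed in DESeq2 (median 0.34). Hippocalcin (Hpca), the most abundant of them, was at 105 and 140 CPM in control and 138 and 281 CPM in cko replicates 1 and 2 (log2 fold change 0.77 with a standard error of 0.42, edgeR quasi-likelihood adjusted p = 0.577).

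**Figure D3:**
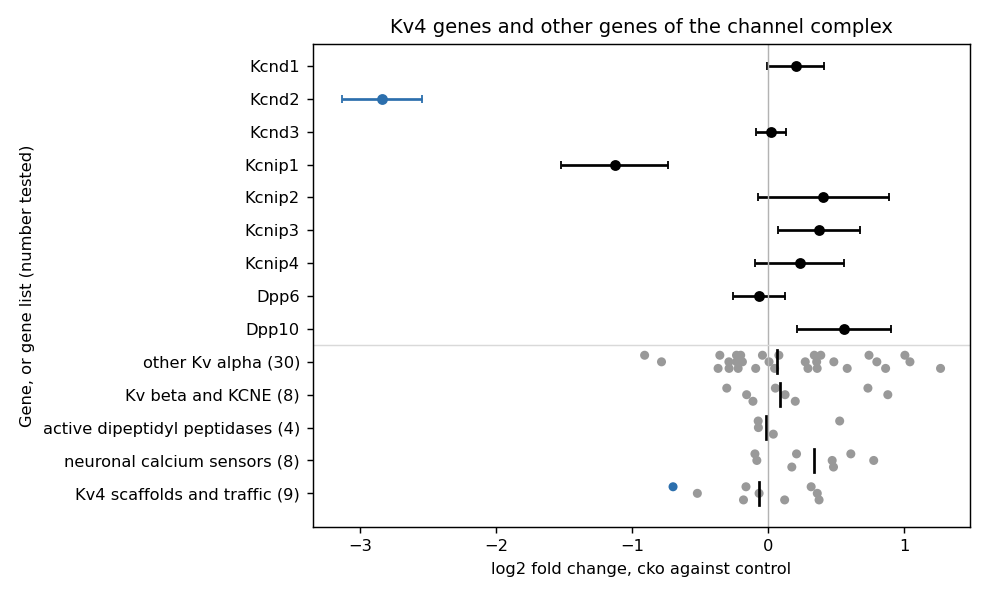
Log2 fold change between cko and control GCps (horizontal axis) for the 9 genes, with bars of 1 standard error, and for the tested genes of 5 related lists, 1 point per gene (number tested in parentheses, black bars at medians). Blue marks an adjusted p under 0.05: Kcnd2 at -2.84, whose low values led to the choice of the set, and, as the one blue point in the lists, Dlg2 at -0.70.

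The genes whose pattern over the 4 libraries was nearest to that of Kcnd2 were Dmrta1, Cadps2, Ndst4, Sema3d and Bmp5. Likeness was the root mean square distance of centred log2 CPM over the 4 libraries, taken over the 11867 tested protein-coding genes whose average log2 CPM was 1 or more. Dmrta1, a transcription factor gene, was at 18.5 and 22.2 CPM in control and at 1.72 and 3.66 CPM in cko replicates 1 and 2 (distance 0.16). Cadps2, a gene for the priming of dense-core vesicles, was at 458 and 427 CPM in control and at 60.1 and 92.3 CPM in cko libraries (distance 0.18). Ndst4, a heparan sulfate sulfotransferase gene, Sema3d, a secreted semaphorin gene, and Bmp5, a bone morphogenetic protein gene, followed at distances of 0.21, 0.23 and 0.26. In these 5 genes, as in Kcnd2, cko replicate 1 was the lowest library and cko replicate 2 the next. Because they were picked for being like Kcnd2, no test applies to them.

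**Figure D4:**
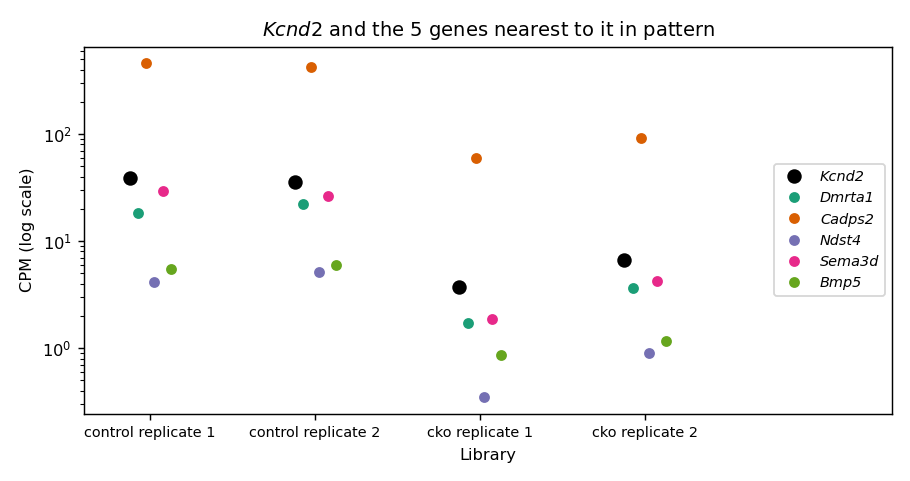
CPM (vertical axis, log scale) of Kcnd2 and of the 5 genes nearest to it in pattern, in the 4 libraries (horizontal axis), 1 point per gene and library. All 6 genes are lowest in cko replicate 1, where Kcnd2 is at 3.71 CPM, and higher in both control libraries than in either cko library.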

How the data were processed

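RNA-Seq counts of 2 control and 2 cko libraries were analysed; libraries of other assays in the series were not analysed here. The authors deposited raw counts, whole numbers of reads for each Ensembl gene, without normalization. By the study's methods and the submitters' processing notes, reads were trimmed (Trim Galore 0.4.1), aligned to mm10 (TopHat2 2.0.14) and counted per Ensembl 75 gene (HTSeq 0.6.1p1, intersection-strict mode, alignment quality under 3 skipped). Whether counting used strand is not stated in those sources, so genes that overlap others on the opposite strand are uncertain.

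Symbols, positions and exonic lengths were taken by identifier from GENCODE vM21 (GRCm38) for 37607 of 38924 genes, an annotation later than the one used for counting. Promoter sequences came from RefSeq (GRCm38.p6). Differences were fitted over all genes with edgeR 4.0.16 in R 4.3.3 (filterByExpr, TMM, robust quasi-likelihood test, Benjamini-Hochberg adjustment over 16436 genes, threshold 0.05), and the steps were tested on simulated data. The study used DESeq2, run here (1.42.0) as an alternative. CPM and RPKM use TMM-scaled library sizes, and n is 2 libraries throughout; an exact permutation test of 2 against 2 cannot go below p = 0.333. A standard error is the log2 fold change divided by the square root of F.

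The members and gene lists were chosen with earlier results of these data known. Named genes were the members, up to 3 called genes of each related list with the lowest adjusted p or else its most abundant gene, the 5 genes nearest to Kcnd2 in pattern, and Chd7, Xist and Ddx3y; marker lists were summed. One gene that this rule names is not reported here. The alternatives were RLE scaling, total counts, no filter, DESeq2, the replicate number as a block, another exon length and each library left out.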

Additional observations from a re-analysis of the deposited data

How the results depend on the processing

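The Kcnd2 log2 fold change kept its direction under all 9 alternatives run, and lay between -3.32 and -2.45 with each library left out. That direction was known when the set was chosen and is no separate result. For the other 8 members, 67 of 72 values moved by less than the spread between replicates. With 2 libraries per genotype, leaving 1 out can move a value little beyond that spread, so for those runs the count does not show stability. Signs changed for Kcnd3 and Dpp6 in 2 alternatives each and for Kcnip3 and Kcnip4 in 1 each, each time on leaving out a library. Calls depended more on the setting. Against 260 genes called (127 lower, 133 higher in cko), there were 727 without the filter on low counts (340 and 387), 891 in DESeq2 (433 and 458) and 1010 with the replicate block (480 and 530), and from 83 to 602 with each library left out (45 to 338 lower, 38 to 264 higher), the fewest without control replicate 2 and the most without cko replicate 2. Of the 9 members, 1 was called, 0 with the replicate block and 0 to 2 with each library left out. Of the related genes 1 was called, 0 with total counts, 4 without the filter, 5 in DESeq2, 6 with the replicate block and 0 to 3 with each library left out. The replicate numbers are not stated to mark shared animals or days; same-numbered libraries deviated together with a correlation of 0.187, which with 2 replicates is the same value for both numbers, so the block was not treated as pairing. Where these counts moved, the cause was not tested. With the length of the longest transcript, the share of Kcnd2 in the Kv4 level differed by -29.4 percentage points between cko and control, against -34.0 with all exons. The alternatives for the summed Kv4 level were chosen after seeing the data. With 2 libraries per genotype and 9 to 78 reads in Kcnip1, Kcnip2, Kcnip4 and Dpp10, depth limits what can be said of these 4 genes.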

Other observations

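Cadps2, the second nearest gene to Kcnd2 in pattern, lies on the same chromosome, and the stretch was looked at after its values were seen. It begins 1.53 Mb beyond the end of Kcnd2 and is transcribed from the opposite strand (chromosome 6, 23262773 to 23839421 of GRCm38). Its log2 fold change was -2.54 (standard error 0.22), given with no test because the gene was picked for its likeness to Kcnd2. Between the 2 genes 7 tested protein-coding genes lie, none of which passed the edgeR quasi-likelihood test, among them Ing3 (log2 fold change -0.0018), Fam3c (-0.06) and Ptprz1 (-0.38, standard error 0.13). Of 16 tested protein-coding genes within 3 Mb of Kcnd2, 2 were called, against 1.58% of all tested genes, but one of them is Cadps2, which prompted the look at this stretch. The other is Rnf148, which lies inside Cadps2 on the same strand and was at 0.274 and 0.447 CPM in control and 0.0259 and 0.0325 CPM in cko libraries (adjusted p = 0.0476 in the same test). The call of Rnf148 was lost with total counts (adjusted p = 0.0543) and without control replicate 2 (0.189), cko replicate 1 (0.144) or cko replicate 2 (0.0655). Rnf133, which also lies inside Cadps2 on the same strand, had a log2 fold change of -2.54 (adjusted p = 0.0633 in the same test). Reads of Rnf148 and Rnf133 cannot be told from unspliced Cadps2 RNA in these counts, so they are not counted as separate changes. Slc13a1, 2.36 Mb beyond Kcnd2, was at 3.76 and 2.97 CPM in control and 0.908 and 1.79 CPM in cko libraries (adjusted p = 0.146 in the same test).

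The level of KChIPs relative to Kv4 alpha subunits was a ratio of RPKM sums of 1.27 and 1.36 in control and 3.66 and 1.78 in cko replicates 1 and 2. The same ratio for DPP-like proteins was 0.192 and 0.221 in control and 0.273 and 0.343 in cko libraries. Its size depends on the length used: with the longest transcript it was 0.424 and 0.481 in control and 0.544 and 0.690 in cko libraries. Both ratios were higher in 2 of 2 cko libraries than in both controls, and both contain Kcnd2, the gene that led to the choice of the set.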
